A study of Rattus norvegicus with 10 samples.

Results

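Aminoacyl-tRNA synthesis genes encode the enzymes that load each transfer RNA with its amino acid. The members were the nuclear genes that the authors' table assigns to the KEGG pathway Aminoacyl-tRNA biosynthesis, 40 of 23051 genes. Of these, 38 had at least 10 counts in 5 or more libraries and were tested, among 12942 genes in all. By function, 17 members were synthetases of the cytosol, 2 served both compartments (Gars1 and Kars1), 15 were mitochondrial synthetases and 6 were other enzymes of the pathway. RNA was sequenced in bulk from rat TDSCs, tendon-derived stem cells, which are tendon's resident progenitors, all on day 3 of osteogenic induction. In 5 libraries the induction medium also held 50 µM farnesol, an isoprenoid alcohol derived from the mevalonate pathway, and 5 control libraries had induction alone. Titles describe the controls as not treated, yet their library names read vehicle, and which solvent they received is not known. The titles call the replicates biological, without saying whether they were separate animals or cultures. The p-values measure only the spread between these libraries, part of which may be technical.

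A synthetase recognises 1 amino acid and the matching transfer RNAs, joins the pair with ATP, and so sets the fidelity of the genetic code. Animal cells keep separate sets of these enzymes, all encoded in the nucleus, for the cytosol and for mitochondria. Several cytosolic synthetases are held in a multisynthetase complex. When amino acids run short or the endoplasmic reticulum is stressed, the transcription factor ATF4 switches on many cytosolic synthetase genes in mammalian cells, through C/EBP-ATF response elements near their start sites.

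The core of that element, TGATGNAA on either strand, was looked for in the RefSeq promoter sequences (build GRCr8, 250 bases before to 50 after each start), which were found for 35 of the 40 members. It occurred in 7 of 15 cytosolic promoters with a sequence (46.7%) and in 0 of 14 mitochondrial ones. Among promoters of all tested genes with a sequence, 207 of 10315 held it (2.01%), and 3.82% of all 27457 promoters did. All 7 genes belong to the 12 synthetases listed here as ATF4 targets, of which 11 had a promoter sequence. The 8 matches are shown because they place the same short core in promoters of genes that rose, fell or did not pass with farnesol. Each stretch runs 5′ to 3′ in the direction of the gene, and capitals mark the match, which reads TTNCATCA where the element lies on the opposite strand.

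Aars1, chr19:55908354-55908393, plus strand: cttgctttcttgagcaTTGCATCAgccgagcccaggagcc
Aars1, chr19:55908475-55908514, plus strand: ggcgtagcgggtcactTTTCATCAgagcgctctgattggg
Cars1, chr1:208225329-208225368, minus strand: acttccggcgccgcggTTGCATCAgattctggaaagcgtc
Mars1, chr7:65023747-65023786, minus strand: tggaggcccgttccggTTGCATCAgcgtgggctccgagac
Yars1, chr5:146820173-146820212, plus strand: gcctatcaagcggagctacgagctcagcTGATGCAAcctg
Nars1, chr18:60275773-60275812, minus strand: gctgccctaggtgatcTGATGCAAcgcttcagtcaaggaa
Tars1, chr2:62114806-62114845, minus strand: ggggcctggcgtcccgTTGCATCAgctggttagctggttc
Iars1, chr17:15193653-15193692, minus strand: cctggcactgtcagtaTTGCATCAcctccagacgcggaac

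In 7 of the 8 matches the open base was C, giving TGATGCAA or its reverse complement TTGCATCA. The matches of Iars1, Mars1, Nars1 and Tars1 began 24, 17, 14 and 27 bases before the annotated start. Those of Cars1 and Yars1 began 17 and 38 bases after it. Aars1 had 1 match that began 112 bases before the start and another that began 9 bases after it. A match is a description of the letters and does not show that a factor binds there. With farnesol, 4 of the 7 genes rose, 1 fell and 2 did not pass the test, as described below. Over all tested genes 29.3% rose and 30% fell. Of cytosolic and dual members with a promoter sequence, 4 of 9 that rose held the core. So did 1 of 2 that fell and 2 of 5 that did not pass.

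Levels between genes are compared as FPKM, the authors' values scaled by gene length and library depth. Among the members, cytosolic and dual synthetases averaged 12.8 to 112 FPKM over the 10 libraries. The 13 tested mitochondrial synthetases averaged 0.501 to 13.5 FPKM. The dual Gars1, the glycyl-tRNA synthetase, was highest at 119 ± 4.71 FPKM in farnesol and 106 ± 5.65 FPKM in control (SD, n = 5 each, as in all values given as mean ± SD). Nars1, for asparagine, followed at 91.9 ± 4.11 FPKM in farnesol and 92.2 ± 3.36 FPKM in control, and Aars1, for alanine, at 84.8 ± 6.19 FPKM in farnesol and 65 ± 2.86 FPKM in control. Aars1 and Nars1 lay within their spread of each other in farnesol libraries and well apart in controls. The cytosolic and dual enzymes held 75.5% and 16.9% of the FPKM summed over the tested members, and the mitochondrial synthetases 4.62%.

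In 13 pairs with a tested cytosolic and a tested mitochondrial enzyme for 1 amino acid, the cytosolic level was 0.953 to 96.1 times the mitochondrial one. The widest gap was between Eprs1, a fused enzyme for glutamate and proline, and mitochondrial Ears2. The pair for isoleucine stood apart from the others. Iars2, the mitochondrial enzyme, had 13.1 ± 0.614 FPKM in farnesol and 13.8 ± 0.674 FPKM in control, and cytosolic Iars1 11.1 ± 1.66 FPKM in farnesol and 14.6 ± 1.5 FPKM in control, so the 2 did not differ beyond their spread in control libraries. The other 12 tested mitochondrial synthetases among the members all lay below Iars1, the lowest cytosolic member. Hars2, the mitochondrial enzyme for histidine, is not a member. It had 14.2 ± 0.947 FPKM in farnesol and 13.5 ± 0.412 FPKM in control libraries, close to Iars2.

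**Figure D1:**
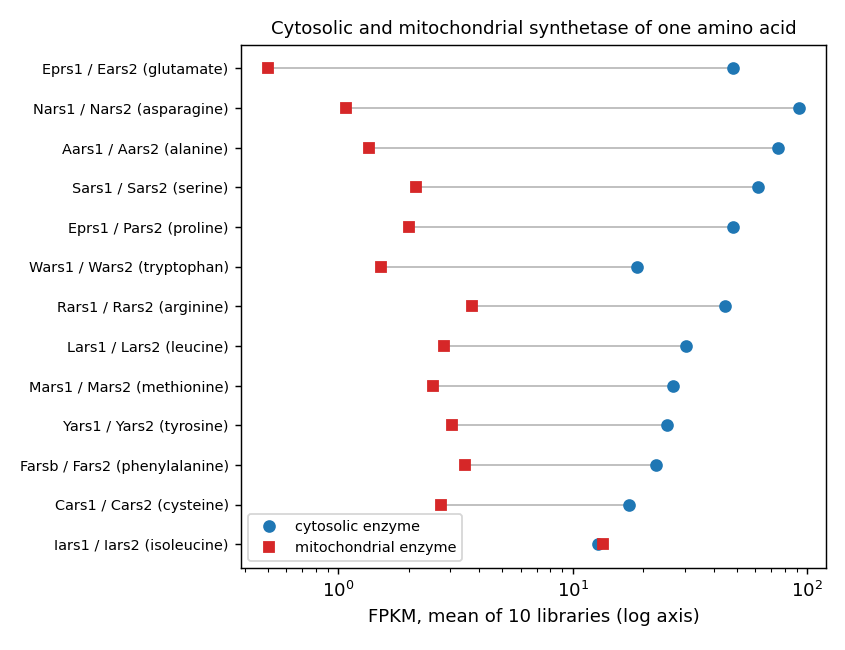
Mean FPKM over 10 libraries (log axis) of the cytosolic synthetase (circles) and the mitochondrial synthetase (squares) for the same amino acid, ordered by their ratio. The cytosolic enzyme is higher in every pair shown except that for isoleucine, where the ratio is 0.953.

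With farnesol, synthetase transcripts moved in both directions and by small amounts. The fitted log2 fold changes of the 38 tested members ran from -0.42 to 0.43. By edgeR's quasi-likelihood test at a Benjamini-Hochberg adjusted p under 0.05, 15 of the 38 rose and 5 fell, that is 39.5% and 13.2%. Over all tested genes 59.2% were called, 29.3% as rises and 30% as falls. The groups did not overlap in 14 of the 38, with farnesol higher in 8 and lower in 6, against 19.7% and 20.9% of all tested genes. Of the 19 cytosolic and dual synthetases 10 rose, 4 fell and 5 did not pass (median log2 fold change 0.14, against 0.01 over all tested genes). Without the dual Gars1 and Kars1, 8 of the 17 cytosolic synthetases rose and 4 fell (median 0.08). Of the 13 tested mitochondrial synthetases 3 rose, 0 fell and 10 did not pass (median 0.07). By edgeR 2 mitochondrial synthetases were lower at an unadjusted p under 0.05. DESeq2 called 2 of them lower and limma on FPKM called 0.

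**Figure D2:**
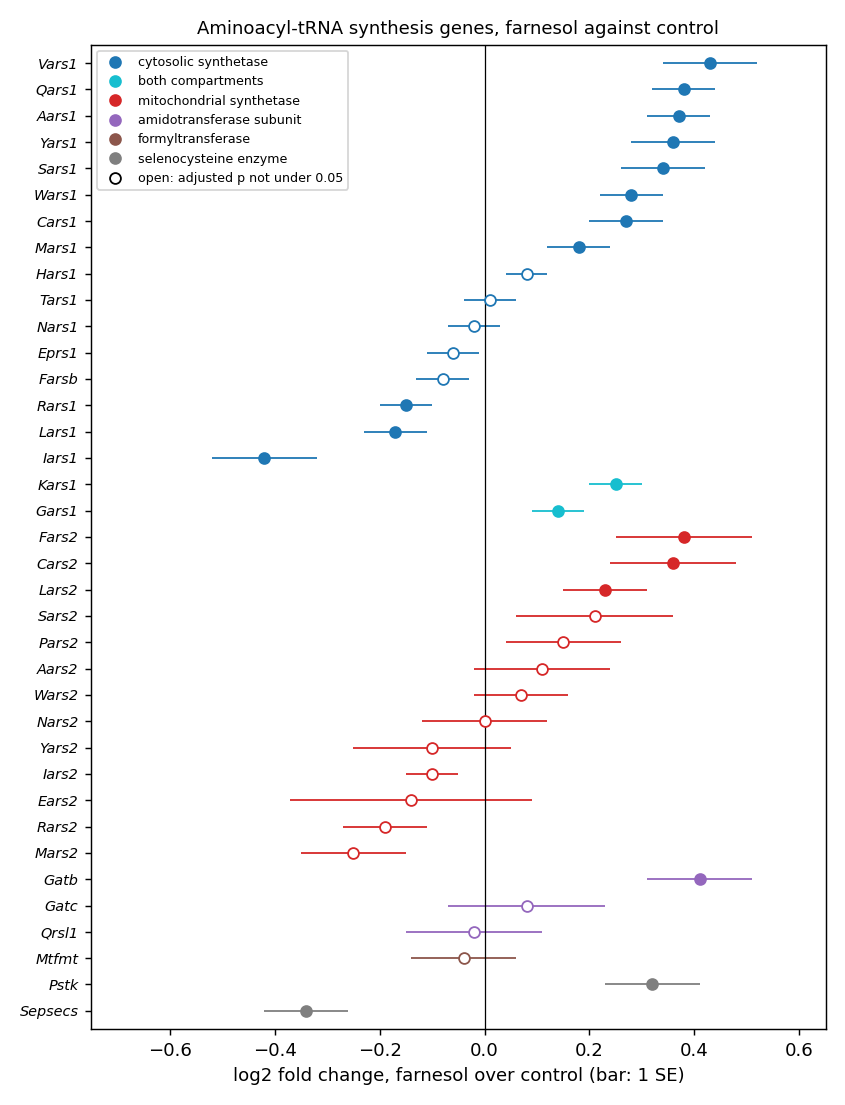
Fitted log2 fold change of farnesol over control for 37 of the 38 tested members (points, with bars of 1 SE), by kind of enzyme; filled points have an adjusted p under 0.05. Cytosolic synthetases lie on both sides of 0, from Vars1 at 0.43 to Iars1 at -0.42, and 10 of 13 mitochondrial synthetases are open.

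Summed over the 19 cytosolic and dual synthetases, the level was 849, 850, 821, 848 and 851 FPKM in farnesol replicates 1 to 5 and 761, 771, 781, 769 and 769 FPKM in control replicates 1 to 5. Every farnesol library lay above every control library, as for 19.7% of all tested genes taken singly. The nearest to each other were farnesol replicate 3 and control replicate 3. Summed over the mitochondrial synthetases it was 39.7 to 41.8 FPKM in farnesol libraries and 38.8 to 40.3 FPKM in control libraries, with overlap. These sums are given as a description, with no test and no covariate. In bulk RNA, more RNA per cell and more cells of one kind cannot be told apart.

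The 4 largest rises among cytosolic and dual enzymes were those of Vars1, Qars1, Aars1 and Yars1. Vars1, the valyl-tRNA synthetase (chromosome 20, 3805776 to 3820298, build rn7 as for all gene positions), had 66.3, 64.8, 62.9, 70.1 and 87.4 CPM in farnesol replicates 1 to 5 and 52.4, 52.4, 58.1, 48.5 and 50.1 CPM in control replicates 1 to 5 (CPM, counts scaled to the TMM-adjusted library size). The groups did not overlap, as in 40.5% of all tested genes, and farnesol replicate 5 was highest. It rose by 0.43 on the log2 scale (SE 0.09, adjusted p = 0.00134).

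Qars1, the glutaminyl-tRNA synthetase (chromosome 8, 109207705 to 109215739), had 191, 191, 173, 189.7 and 216 CPM in farnesol and 142, 145, 160.1, 147 and 145 CPM in control libraries. Here too the groups were apart, and the control nearest to farnesol was replicate 3. Qars1 rose by 0.38 on the log2 scale (SE 0.06) and had the smallest adjusted p of the members, 0.000321.

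Aars1, the alanyl-tRNA synthetase with both matches shown above (chromosome 19, 38999163 to 39021147), had 294, 279, 264, 287 and 334 CPM in farnesol and 219.8, 220.3, 243, 225 and 223 CPM in control libraries. The lowest farnesol library, replicate 3, was still above the highest control, also replicate 3. Aars1 rose by 0.37 on the log2 scale (SE 0.06, adjusted p = 0.00046).

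Yars1, the tyrosyl-tRNA synthetase (chromosome 5, 141535759 to 141563833), had 82.8, 79.9, 71.7, 77.9 and 91.6 CPM in farnesol and 60.7, 60, 71.9, 65.6 and 57.5 CPM in control libraries. The groups overlapped, by farnesol replicate 3 and control replicate 3 only. Yars1 rose by 0.36 on the log2 scale (SE 0.08, adjusted p = 0.00171). Sars1, for serine, rose by 0.34 on the log2 scale, Wars1, for tryptophan, by 0.28, Cars1, for cysteine, by 0.27, and Mars1, for methionine, by 0.18.

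The 2 dual enzymes rose as well. Kars1, the lysyl-tRNA synthetase (chromosome 19, 39957846 to 39977632), had 120.4, 113, 108, 112 and 110.5 CPM in farnesol and 95.9, 98.4, 89.9, 93.4 and 97.8 CPM in control libraries. The groups were apart, with the farnesol libraries close together and replicate 1 the highest. Kars1 rose by 0.25 on the log2 scale (SE 0.05, adjusted p = 0.00105). Gars1 had 295, 290.3, 270.3, 284 and 313 CPM in farnesol and 245, 255, 282, 265 and 267 CPM in control libraries, with overlap. Gars1 rose by 0.14 on the log2 scale (SE 0.05, adjusted p = 0.0356), and the call was lost on leaving out any of farnesol replicates 1, 2 and 5 or control replicates 1, 2, 4 and 5 (highest adjusted p = 0.0841).

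Of the 4 cytosolic enzymes that fell, Iars1, Lars1 and Rars1 are described. Iars1, the isoleucyl-tRNA synthetase (chromosome 17, 14940924 to 14987237), had 58.1, 66, 69.8, 67.9 and 49.3 CPM in farnesol and 96.1, 82.2, 71.8, 83.8 and 82.1 CPM in control libraries. Farnesol replicate 5 was lowest and the groups did not overlap. Iars1 fell by 0.42 on the log2 scale (SE 0.10, adjusted p = 0.0028). Its promoter holds the same TTGCATCA as those of Aars1, Cars1 and Mars1, which rose, and of Tars1, which did not pass.

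Lars1, the leucyl-tRNA synthetase that also signals leucine to mTORC1 (chromosome 18, 34201549 to 34255931), had 117, 111, 117, 116 and 96.9 CPM in farnesol and 129, 125, 119.7, 126 and 126 CPM in control libraries. The groups did not overlap, but only farnesol replicate 5 was far from the controls. Lars1 fell by 0.17 on the log2 scale (SE 0.06, adjusted p = 0.0259), a call lost without farnesol replicate 2 or control replicates 1, 4 or 5 (highest adjusted p = 0.0539).

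Rars1, the arginyl-tRNA synthetase (chromosome 10, 20270483 to 20295196), had 96.2, 101, 107, 100.4 and 97 CPM in farnesol and 111, 112, 105, 114 and 117 CPM in control libraries, with overlap of the replicates numbered 3. Rars1 fell by 0.15 on the log2 scale (SE 0.05, adjusted p = 0.0181), and the call was lost without farnesol replicate 1 (adjusted p = 0.0581) or control replicate 5 (adjusted p = 0.0529). The cytosolic enzymes that did not pass were Eprs1, Farsb, Hars1, Nars1 and Tars1, with log2 fold changes of -0.08 to 0.08. In Farsb the groups did not overlap although its call failed (adjusted p = 0.14). Nars1 had 246, 248, 247, 248 and 231 CPM in farnesol and 245, 253, 234, 259 and 248 CPM in control libraries, and its log2 fold change was -0.02 (SE 0.05).

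**Figure D3:**
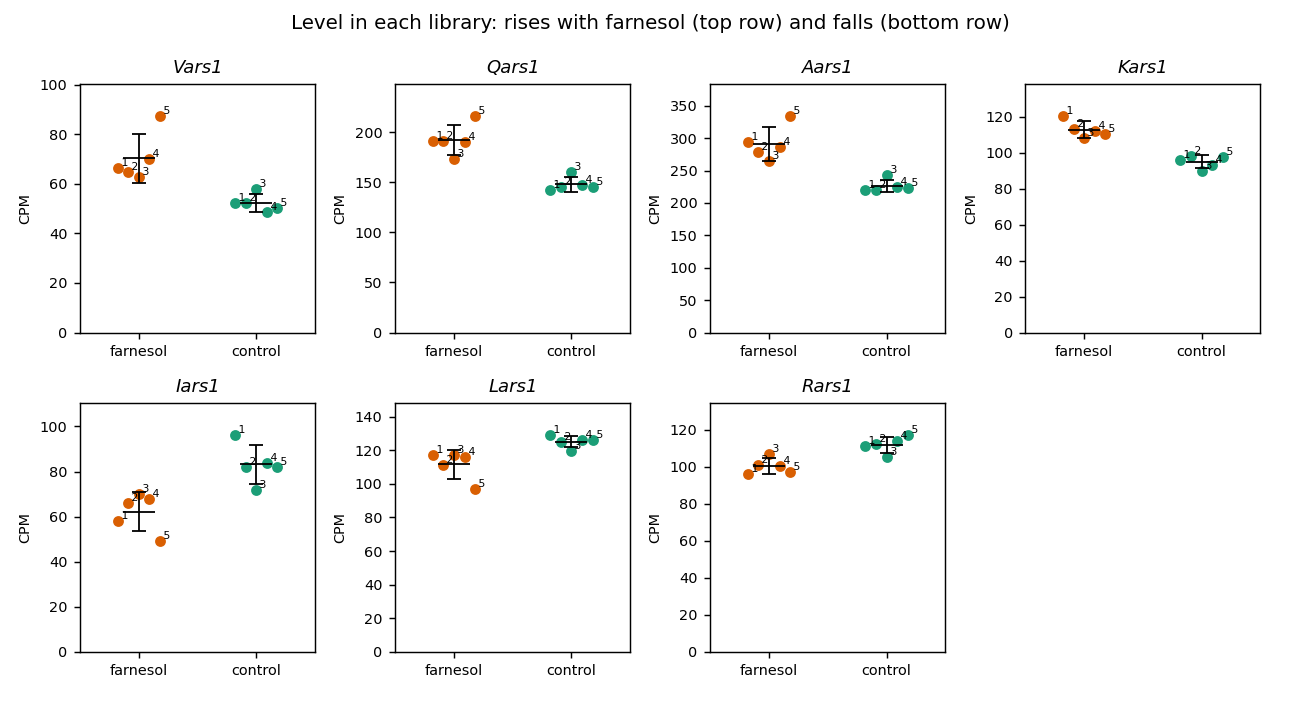
CPM in each library (points, numbered by replicate) with mean and SD (black) for 4 synthetases that rose with farnesol (top) and 3 that fell (bottom). In Iars1 and Lars1 farnesol replicate 5 is the lowest library, and in Vars1, Qars1 and Aars1 it is the highest.

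All 4 falls were among the 8 enzymes of the multisynthetase complex. In the complex 3 rose (Kars1, Mars1 and Qars1), 4 fell and 1 did not pass, with a median log2 fold change of -0.11, where 29.3% of all tested genes rose and 30% fell. Of the 11 cytosolic and dual enzymes outside it 7 rose, 0 fell and 4 did not pass, with a median of 0.27. By edgeR 0 of these 11 were lower at an unadjusted p under 0.05, and DESeq2 and limma also called 0. With a smooth length trend removed 2 in the complex and 1 outside it fell, with median log2 fold changes of 0.08 and 0.35. This is a description of 2 small lists, and the difference between them was not tested. Of the scaffold proteins of the complex, Aimp1 rose by 0.39 on the log2 scale (adjusted p = 0.000673) and Aimp2 by 0.29 (adjusted p = 0.0294). The call of Aimp2 did not hold in the fits with a covariate described below. Aimp2 and Eef1e1 are named as scaffold proteins, after their values were seen. The third, Eef1e1, had 29 ± 3.41 CPM in farnesol and 31.3 ± 2.14 CPM in control libraries and did not pass.

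By fold of the catalytic domain, the 9 class I enzymes among the cytosolic and dual synthetases gave 6 rises and 3 falls, and the 9 class II enzymes 4 rises and 1 fall. Eprs1 joins 1 domain of each class and did not pass, at 236 ± 8.87 CPM in farnesol and 246 ± 12.4 CPM in control libraries. Among the 12 synthetases listed as ATF4 targets 7 rose and 2 fell (median log2 fold change 0.16). Among the 7 others 3 rose and 2 fell (median 0.08). All of these counts stand beside 29.3% rises and 30% falls over all tested genes.

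Of the mitochondrial synthetases Fars2, Cars2 and Lars2 rose. Fars2, for phenylalanine (chromosome 17, 28319280 to 28746337), had 9.36, 10.4, 7.92, 9.44 and 11.4 CPM in farnesol and 6.23, 7.88, 9.46, 7.08 and 6.52 CPM in control libraries, with overlap. Fars2 rose by 0.38 on the log2 scale (SE 0.13, adjusted p = 0.0208). Cars2, for cysteine (chromosome 16, 77950008 to 77987772), had 7.91, 8.31, 7.58, 7 and 10.8 CPM in farnesol and 6.59, 7.42, 6.51, 5.53 and 6.39 CPM in control libraries, and rose by 0.36 on the log2 scale (SE 0.12, adjusted p = 0.024). In both, farnesol replicate 5 was the highest library and the groups overlapped.

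Lars2, the mitochondrial partner of Lars1 (chromosome 8, 123010293 to 123106395), had 13.1, 10.6, 12.2, 11.6 and 12.7 CPM in farnesol and 11, 9.97, 10.4, 9.33 and 10.6 CPM in control libraries, with overlap. Lars2 rose by 0.23 on the log2 scale (SE 0.08, adjusted p = 0.0268). The other 10 had log2 fold changes of -0.25 to 0.21, with Mars2 lowest and Sars2 highest. Rars2 did not pass at -0.19 (adjusted p = 0.0518), although its groups did not overlap. None of the 3 calls held on leaving out each library in turn. Cars2 was lost without farnesol replicate 5 or control replicate 4, Fars2 without control replicates 1 or 5, and Lars2 without farnesol replicate 1 or control replicates 2 or 4, at adjusted p values up to 0.0695.

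Leucine gave the 1 pair called in opposite directions. The log2 ratio of Lars1 to Lars2 was 3.21 ± 0.18 in farnesol and 3.61 ± 0.09 in control libraries, and it was the only 1 of the 13 pair ratios whose groups did not overlap. Iars2 had 48.9 ± 1.7 CPM in farnesol and 52.3 ± 2.52 CPM in control libraries and did not pass (log2 fold change -0.10, SE 0.05). The cytosolic member had the higher fold change in 7 of the 13 pairs. Precision differed between the sets. Tested mitochondrial members had 31 to 2561 counts per library and a median SE of 0.12 on the log2 scale, and cytosolic and dual members 2089 to 14806 counts and a median SE of 0.06.

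Among the other enzymes of the pathway, Gatb, Gatc and Qrsl1 form the mitochondrial amidotransferase that turns glutamate on its transfer RNA into glutamine. Gatb (chromosome 2, 170930542 to 171016695) had 14.9, 11.9, 11.6, 10.4 and 12.1 CPM in farnesol and 8.9, 8.11, 10.4, 9.22 and 9.36 CPM in control libraries. The groups did not overlap, though farnesol replicate 4 and control replicate 3 were nearly level, and farnesol replicate 1 was highest. It rose by 0.41 on the log2 scale (SE 0.10, adjusted p = 0.00472). Its partner subunits did not pass, Gatc at 5.68 ± 1.01 CPM in farnesol and 5.36 ± 0.856 CPM in control libraries and Qrsl1 at 4.14 ± 0.732 CPM in farnesol and 4.21 ± 0.391 CPM in control libraries. Mtfmt, which formylates the initiator methionyl-tRNA of mitochondria, had 9.36 ± 0.817 CPM in farnesol and 9.61 ± 1.11 CPM in control libraries and did not pass either.

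The pair of enzymes that make selenocysteine on its transfer RNA were called in opposite directions. Pstk, the kinase of the first step (chromosome 1, 186157707 to 186168145), had 7.86, 7.26, 8.11, 8.76 and 7.7 CPM in farnesol and 5.83, 7.24, 6.12, 6.01 and 6.58 CPM in control libraries. It rose by 0.32 on the log2 scale (SE 0.09, adjusted p = 0.00993). Sepsecs, the synthase of the second step (chromosome 14, 58311499 to 58341740), had 13.6, 13.5, 11.7, 12.1 and 11.5 CPM in farnesol and 15.1, 17.1, 15.1, 16.8 and 15.3 CPM in control libraries. Sepsecs fell by 0.34 on the log2 scale (SE 0.08, adjusted p = 0.00237). Neither gene's groups overlapped.

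Farnesol libraries differed in how far their synthetases stood from the controls, mostly in the same order. Of the 14 cytosolic and dual synthetases called, farnesol replicate 3 was the farnesol library nearest to the controls in 14, farnesol replicate 5 the farthest in 11, and control replicate 3 the control nearest to farnesol in 12. The same libraries were extreme within their own group along a direction that runs through all genes. On this library axis, along which libraries of one group differ most, farnesol replicate 5 was the highest and farnesol replicate 3 the lowest farnesol library, and control replicate 3 the highest control. The axis held 36.2% of the variance within groups. Scores on it were 24.1, 11.7, -0.294, 11.8 and 60 in farnesol replicates 1 to 5 and -40.3, -26.9, 4.29, -17.1 and -27.2 in control replicates 1 to 5. They ran opposite to the length slope (correlation -0.981). This is the slope, in each library, of log2 level minus the gene's mean over the 10 libraries on log2 gene length. It was -0.185 to -0.0355 in farnesol libraries and -0.00186 to 0.169 in control libraries.

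Most calls ended when either measure was a covariate. Given the library axis, 4 of 38 members rose (Aars1, Kars1, Qars1 and Wars1) and 0 fell. Of all tested genes 21.1% were then called, 9.11% as rises and 12% as falls. Given the length slope, 1 rose (Kars1) and 0 fell, and of all tested genes 7.53% were called, 3% as rises and 4.54% as falls. In edgeR fits with either covariate 1 member was lower at an unadjusted p under 0.05. Kars1, singled out after its values were seen, had log2 fold changes of 0.28 (adjusted p = 0.000243) with the axis and 0.30 (adjusted p = 0.00829) with the slope. With a block for replicate number and the slope together, 0 members rose and 0 fell, so the call of Kars1 ended as well. Aars1 had 0.16 and 0.11 and Qars1 0.19 and 0.13 with the axis and the slope. Iars1 had -0.05 with the axis and 0.07 with the slope. Other calls ended with a fold change of about the same size and a larger SE. Pstk had log2 fold changes of 0.37 (SE 0.15) with the axis and 0.36 (SE 0.18) with the slope, Sepsecs -0.30 (SE 0.11) and -0.31 (SE 0.14), and Lars2 0.19 (SE 0.12) and 0.21 (SE 0.15). With no covariate but a smooth length trend removed, the calls of Iars1 (-0.16, adjusted p = 0.0525), Lars1 (-0.01), Gars1 (0.11) and Pstk (0.09) ended. With the axis the complex and the other cytosolic and dual enzymes had median log2 fold changes of 0.03 and 0.07, and with the slope of 0.07 and 0.05. The axis and the slope differ between the groups, so their part in the calls and that of farnesol cannot be told apart.

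**Figure D4:**
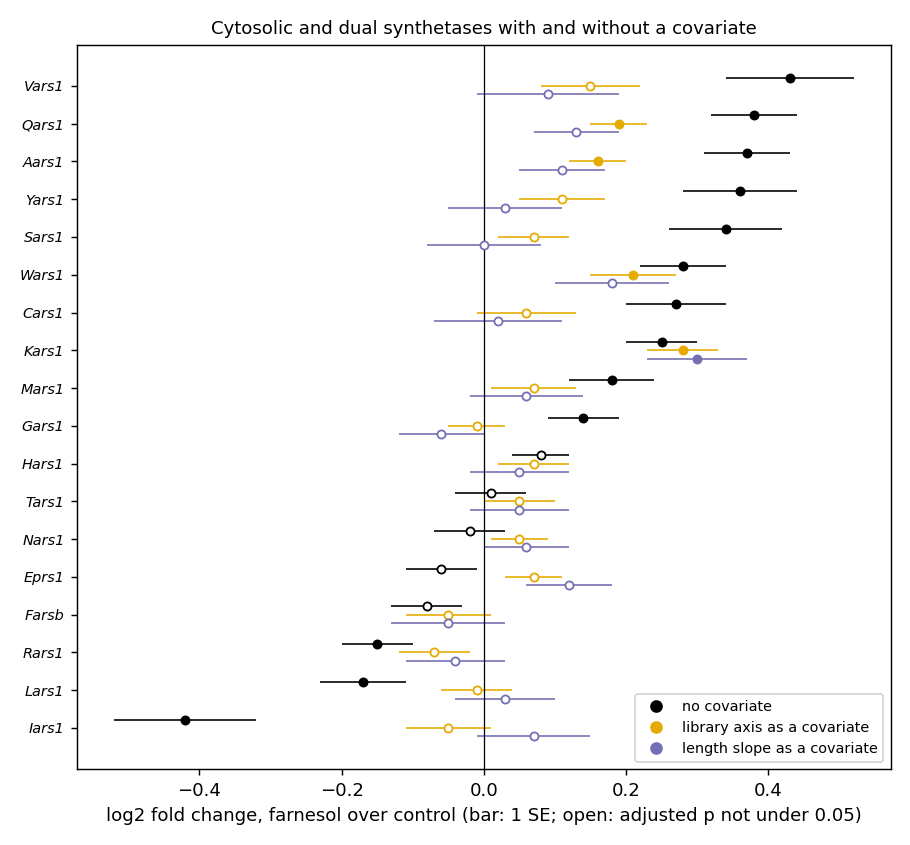
Log2 fold change of farnesol over control, with bars of 1 SE, for 18 of the 19 cytosolic and dual synthetases without a covariate (black), with the library axis (yellow) and with the length slope (violet); filled points have an adjusted p under 0.05. Kars1 is filled in all 3 fits, and Iars1, Lars1 and Rars1, which fell without a covariate, lie near 0 with either one.

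Synthetases that the table does not assign to the pathway were looked at after it was seen. Farsa, the alpha subunit of the cytosolic phenylalanyl-tRNA synthetase, had 48.6, 51.6, 41.3, 50.6 and 68.9 CPM in farnesol and 31.6, 34.8, 43.1, 38.6 and 33.2 CPM in control libraries. It rose by 0.53 on the log2 scale (SE 0.12, adjusted p = 0.00282), and the call ended with either covariate (0.06 with the axis and -0.09 with the slope). Farsb, the beta subunit and a member, had 53.6 ± 1.21 CPM in farnesol and 56.8 ± 1.23 CPM in control libraries and did not pass. The ratio of Farsa to Farsb in CPM was 0.978 ± 0.213 in farnesol and 0.639 ± 0.0854 in control libraries, and the groups overlapped by farnesol replicate 3 and control replicate 3. Hars2 and Tars3 did not pass.

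Of 12 further genes of transfer RNA charging, editing, export and processing 6 rose and 1 fell, against 29.3% and 30% of all tested genes. Aarsd1, which clears a wrong amino acid from the transfer RNA for alanine, rose by 0.73 on the log2 scale (adjusted p = 0.000486). Elac2, which trims the 3′ end of transfer RNA precursors, rose by 0.40 (adjusted p = 0.00099). Xpot, which exports transfer RNA from the nucleus, had 87.3 ± 11.2 CPM in farnesol and 119 ± 8.79 CPM in control libraries and fell by 0.45 on the log2 scale (adjusted p = 0.000949). Given the axis, 2 of the 12 rose (Aimp1 and Aarsd1), and with the slope 0. Aimp1 had log2 fold changes of 0.19 with the axis and 0.12 with the slope. The sign of Aimp2 turned, to -0.09 with the axis and -0.22 with the slope, and it did not pass. With the replicate block the call of Aimp2 ended as well (0.29, adjusted p = 0.0553). With the slope 0 were higher and 1 was lower at an unadjusted p under 0.05.

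Of 12 other genes of the ATF4 pathway 9 rose and 0 fell, against 29.3% and 30% of all tested genes, and 0 were lower at an unadjusted p under 0.05 by edgeR. DESeq2 and limma each called 0 lower. Atf4 itself had 277 ± 15.5 CPM in farnesol and 234 ± 16.6 CPM in control libraries (log2 fold change 0.24, adjusted p = 0.00391). That call ended with either covariate, at 0.06 with the axis and -0.01 with the slope. Slc3a2, a subunit of amino acid transporters, rose by 0.38 on the log2 scale, Shmt2, of mitochondrial one-carbon metabolism, by 0.46, Phgdh, of serine synthesis, by 0.74, and Ddit3, the stress factor CHOP, by 0.64. Given the axis, 6 of the 12 rose, against 9.11% of all tested genes. Given the slope, 1 rose, against 3% of all tested genes. It was Psat1 of serine synthesis, at 0.52 (adjusted p = 0.00362). Slc3a2, Shmt2, Phgdh and Ddit3 kept their calls with the axis, at 0.25, 0.26, 0.31 and 0.36. With the slope they had 0.22, 0.18, 0.18 and 0.28 and did not pass. Asns, of asparagine synthesis, kept its log2 fold change, at 0.19 with no covariate, 0.20 with the axis and 0.21 with the slope, where it did not pass (adjusted p = 0.103). Trib3, a pseudokinase induced by ATF4, had 0.88 with no covariate, and 0.60 with the axis and 0.54 with the slope, where it did not pass. Sesn2 had 0.38 with no covariate, and 0.14 with the axis and 0.01 with the slope, where it did not pass. Chac1, Mthfd2 and Slc7a11 did not pass with no covariate or with either one. Atf4, Psat1, Asns, Trib3, Sesn2, Chac1, Mthfd2 and Slc7a11 are named after their values were seen. The transcripts of this pathway and of the synthetases were measured in the same libraries, so they share the library axis.

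Tars2, the mitochondrial synthetase for threonine, was listed at 0 in all 10 libraries. At these depths 3 counts, the limit that a count of 0 allows by counting error alone, are worth 0.064 to 0.072 CPM. Tars2 overlaps Rprd2, listed on the same strand, and 11 of the 40 members overlap another gene of the table. Mars1 overlaps Ddit3, which rose, and Kars1 overlaps Terf2ip, both on the opposite strand. Mars1 and Ddit3 share only bases 63121142 to 63121201 of chromosome 7. Iars1 overlaps a gene without a symbol on the same strand. Aars2 overlaps several genes, listed on both strands, Hsp90ab1 among them. Strand use and the handling of shared reads in counting are not stated, and reads in the stretches that such genes share cannot be told apart. The 0 of Tars2 is therefore given as listed.

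The libraries held 41.8 to 47.1 M counts. The tendon label was checked on 8 markers, which summed to 22715 to 24691 CPM in farnesol and 22254 to 23662 CPM in control libraries, nearly all Col1a1 and Col1a2. Of the 7 tested markers 3 fell, where 30% of all tested genes did. Col1a1 had 15726 ± 689 CPM in farnesol and 15025 ± 471 CPM in control libraries. Scx, a tendon transcription factor, had 21.4 ± 4.35 CPM in farnesol and 35.3 ± 4.35 CPM in control libraries. Mkx, another, had 18.1 ± 2.56 CPM in farnesol and 24.9 ± 2.03 CPM in control libraries, and Dcn, the proteoglycan decorin, 15.2 ± 2.1 CPM in farnesol and 23.1 ± 0.607 CPM in control libraries. These 3 markers fell, and Tnmd was at or near 0. Ptprc, Cdh5 and Sox10, defining genes of leukocytes, endothelium and Schwann cells, were listed at 0. The 4 leukocyte markers summed to 65.5 to 69.7 CPM in farnesol and 49.6 to 53.8 CPM in control libraries, nearly all Cd14. The 4 skeletal muscle markers summed to 59.3 to 91.2 CPM in farnesol and 141 to 169 CPM in control libraries, nearly all Acta1, and the 2 cartilage markers to 3.18 to 5.81 CPM in farnesol and 16.5 to 19.8 CPM in control libraries, nearly all Acan. Endothelial, adipocyte and Schwann cell lists summed to under 1 CPM in every library. Their part in the synthetase values was not tested.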

How the data were processed

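Per the file headers, the table that the authors deposited gives raw counts of reads for each gene in each library. It also holds FPKM, which the authors computed from those deposited counts, gene length and library total. Build rn7, StringTie, DESeq, HTSeq 0.9.1 and HISAT2 2.0.5 are listed, without their roles, per the submitters' processing notes. Of 23052 rows 1 repeated another and was removed. Genes with at least 10 counts in 5 or more libraries (12942) entered edgeR 4.0.16, run under R 4.3.3 (TMM, robust quasi-likelihood fit, group as the only term, Benjamini-Hochberg over all genes at 0.05). SE is the log2 fold change divided by the square root of F. Gene length came from the ratio of count to FPKM. DESeq2 1.42.0 and limma 3.58.1, the latter on log2(FPKM + 0.1), were alternatives, with other filters and scaling, single libraries left out, covariates and a replicate block.

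Depth was 41.8 to 47.1 M counts per library. Replicate libraries differed beyond sampling noise (chi-square per gene 3.93 to 112 over 20 pairs). In simulated counts for 12942 genes, 18, 39, 43 and 50 of 50 genes seeded at 1.25, 1.5, 2 and 4-fold were recovered. Of the 158 calls made there, 8 were false. In the data 7668 of 12942 tested genes were called, and whether the simulated rates hold for them was not tested. The members, lists, motif and covariates were chosen with earlier results of these data known. All members could be named, but 2 are not reported singly here and enter only the counts, sums and medians. Library values are given for the 4 largest rises and falls of cytosolic and of other members, pairs called in opposite directions, and the 3 highest FPKM levels. Kars1 and Farsa were added after their values were seen, and of the further lists the 4 genes of smallest p were named. Aimp2, Eef1e1, Atf4, Psat1, Asns, Trib3, Sesn2, Chac1, Mthfd2 and Slc7a11 were chosen later.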

Additional observations from a re-analysis of the deposited data

Results flagged for a closer look

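In 6 of 76 sets of 5 libraries tested, 1 library lay far from the other 4 (Dixon's test at 95%), and chance flags about 1 set in 20. Farnesol replicate 5 was lowest in Lars1, at 96.9 CPM with the next library at 111 CPM, and in Nars1, at 231 CPM with the next at 246 CPM. Control replicate 3 was highest in Aars1, at 243 CPM with the next at 225 CPM, and in Qars1, at 160.1 CPM with the next at 147 CPM. Farnesol replicate 2 was lowest in Mars2, at 5.34 CPM, and control replicate 2 highest in Aars2, at 5.38 CPM.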

How the results depend on the processing

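The count of changed genes over all genes was 7668, and 2730 with the library axis, 975 with the length slope and 689 with the replicate block and the slope together. Cytosolic synthetases that rose numbered 8 (Gars1 and Kars1 left out), and 3, 0 and 0 in those fits. Those that fell numbered 4, and 0 in each of those fits, 2 with the replicate block and 2 to 4 on leaving out each library (2 without control replicate 5). Mitochondrial synthetases that rose numbered 3, and 0 in those fits, 1 with the block and 1 to 3 on leaving out each library (1 without control replicate 4). Those that fell numbered 0, and 2 by DESeq2, 1 with its size factors, 1 with a length trend removed and 0 to 1 on leaving out each library (Rars2 without control replicate 1, Mars2 without control replicate 3). The cytosolic median log2 fold change of 0.08 was 0.17 with a length trend removed, 0.05 with block and slope, and 0.14 with Gars1 and Kars1. The mitochondrial median of 0.07 was -0.04 with the axis, -0.11 with the slope, 0.25 with a length trend removed and -0.12 with block and slope, and was 0.02 without farnesol replicate 5.

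Among called members, signs turned for Gars1 with the axis (-0.01) and with the slope for 5, among them Iars1 (0.07), Lars1 (0.03), Gars1 (-0.06) and Fars2 (-0.13), all with adjusted p over 0.05. With block and slope they turned for 10 called members, among them Cars1 (-0.05), Iars1 (0.07), Lars1 (0.01), Mars1 (-0.00), Rars1 (0.02), Sars1 (-0.01), Yars1 (-0.05), Gars1 (-0.06) and Fars2 (-0.24). Members that had not passed turned sign as well, such as Pars2 (-0.14 with the axis, -0.24 with the slope). With a length trend removed Eprs1 was higher (0.17, adjusted p = 0.00139). The cause was not tested. The labels do not say whether same-numbered libraries are pairs. Deviations of same-numbered libraries correlated at -0.389 to 0.0494, and 0 of 5 farnesol libraries correlated best with its own number. These values cannot decide it, because other differences between libraries, such as the library axis, can hide a shared source. With the replicate block 11 members rose and 3 fell. No filter on low counts and filterByExpr changed no member's call.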
